A study of Mus musculus with 2 samples.

Results

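Cldn1, Cldn3, Cldn4, Ocln, Tjp1, Cdh1, Cdh2, Dsp, Jup and Perp encode parts of the junctions that join epithelial cells, and their transcripts were followed by symbol through every deposited cell cluster. They are 10 of the 19626 genes in the count table, and all 10 were found. Single cells were taken at postnatal day 20 from the cervical loop region of the mouse lower incisor, epithelium and mesenchyme included. One group was labelled Control, with no further genotype given. The other was labelled Memo1;K14CRE, a mouse in which Cre recombinase under the promoter of keratin 14, a gene of basal epithelial cells, removes Memo1. Each group was 1 mouse and 1 library of 10x Genomics 3' single-cell RNA sequencing. There was therefore no measure of variation between mice and no test. "Higher" and "lower" below describe these 2 libraries, and every interval given is a 95% interval for counting error alone.

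Tight junctions seal the space between epithelial cells near their apical end. Claudins and occludin are their membrane proteins, and ZO-1, the product of Tjp1, is a scaffold beneath them. Adherens junctions are built on classical cadherins, E-cadherin from Cdh1 and N-cadherin from Cdh2, which bind the same cadherin on the neighbouring cell. Desmosomes anchor keratin filaments through desmoplakin (Dsp), with plakoglobin (Jup) linking it to the desmosomal cadherins and Perp as a membrane protein of the desmosome. The incisor grows throughout life, so its enamel organ holds ameloblasts, the cells that make enamel, at every stage, from secretion of enamel matrix to maturation of the mineral. Beside them lie the stratum intermedium, the papillary layer, the stellate reticulum and the outer enamel epithelium, which are layers of supporting epithelium. Enamel fails to form properly in mice that lack Perp.

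Promoter sequences from RefSeq (GRCm38.p6), from 250 bases before the gene's start to 50 after it, were found for 7 of the 10 genes: Cldn1, Cldn3, Cldn4, Ocln, Tjp1, Dsp and Jup. Those of the 3 claudins are shown because they set Cldn1, present in every lineage cluster, beside the 2 claudins that gave almost no UMIs. Capitals mark CACCTG on either strand (read as CAGGTG on the other), an E-box sequence that Snail and ZEB repressors are known to bind. The Cldn1 window is chr16:26371790-26372089 on the minus strand, that of Cldn3 is chr5:134985964-134986263 on the plus strand, and that of Cldn4 is chr5:134946885-134947184 on the minus strand.
Cldn1: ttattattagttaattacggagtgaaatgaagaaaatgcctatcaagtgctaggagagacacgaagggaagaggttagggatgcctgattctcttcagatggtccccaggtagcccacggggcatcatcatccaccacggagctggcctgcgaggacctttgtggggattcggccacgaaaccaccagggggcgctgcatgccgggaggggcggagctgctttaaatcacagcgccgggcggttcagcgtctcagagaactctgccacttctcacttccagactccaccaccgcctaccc
Cldn3: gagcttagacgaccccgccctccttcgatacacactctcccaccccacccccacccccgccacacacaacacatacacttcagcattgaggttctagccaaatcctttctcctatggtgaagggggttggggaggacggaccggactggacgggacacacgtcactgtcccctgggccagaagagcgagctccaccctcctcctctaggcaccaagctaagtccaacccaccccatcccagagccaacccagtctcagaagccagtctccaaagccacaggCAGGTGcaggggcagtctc
Cldn4: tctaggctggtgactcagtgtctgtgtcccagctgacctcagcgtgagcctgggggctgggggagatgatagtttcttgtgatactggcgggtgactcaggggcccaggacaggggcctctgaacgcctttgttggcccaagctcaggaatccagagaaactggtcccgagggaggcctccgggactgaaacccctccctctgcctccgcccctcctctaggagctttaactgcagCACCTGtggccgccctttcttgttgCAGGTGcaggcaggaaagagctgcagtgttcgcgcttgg
The Cldn1 window holds 0 matches. Cldn3 has 1, starting at position 31 counted from the gene's start, and Cldn4 has 2, starting at positions -14 and 11. Among the others, Dsp has 1 match, the 2 RefSeq starts of Ocln have 1 and 2, and Tjp1 and Jup have 0. Of 32851 mouse promoters of the same length, 20.2% hold the sequence at least once. The grainyhead sequence AACCNGTT, found in 2.09% of promoters, and TATAAA, found in 13.6%, were in 0 of the members' windows, so no match overlapped another. These are matches of letters in a short window and nothing more.

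The control library held 9708 cells and 79518656 UMIs (unique molecular identifiers, 1 per captured transcript), with a median of 2643 per cell. The mutant library held 13820 cells and 120862385 UMIs, with a median of 6798. The depositors had marked 2981 control and 2303 mutant cells as ameloblast lineage in clusters numbered 0 to 8, without names. Levels are in CPM, a gene's UMIs scaled to the total UMIs of the same cluster and library, and serve to compare clusters. Where genes are set side by side, captured UMIs are compared, and how well each gene was captured is not known. From marker genes, lineage cluster 3 was secretory ameloblast-like, cluster 7 maturation ameloblast-like, cluster 5 stratum intermedium or papillary layer-like, and cluster 1 outer enamel epithelium or stellate reticulum-like. The others keep their number. Cluster 2, led by Pi15 and Igfbp2, also had 3 markers of the outer enamel epithelium or stellate reticulum among its 10 leading genes, but with them 1 of secretory ameloblasts and 1 that dental pulp mesenchyme shares. Cluster 8 had 5 of the 8 markers of that layer raised, and 0 among its leading genes. Red blood cell genes were among the leading genes of clusters 0 and 4. Cluster 6 was led by Dspp and Fxyd4, and cluster 4 by Igfbpl1 and Col22a1 with haemoglobin. Cluster 0 was shallow, with a median of 1092 UMIs per control and 898 per mutant cell, and cluster 8 held 91 mutant cells and 0 control cells. Memo1 itself gave 20.3 CPM in control and 17.7 CPM in mutant lineage cells, but the deleted segment is not stated and UMIs from the rest of the gene count too, so this level does not check the genotype. The 2 libraries shared 139 cell barcodes, 18 of them in the same cluster. Doublets were not called.

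Cldn1 (chromosome 16, 26356642 to 26371841 on the minus strand in GRCm38, by GENCODE M21) encodes the claudin that seals epidermal barriers. In the control library its highest level was in maturation ameloblast-like cluster 7, at 771 CPM (736 to 808), followed by cluster 5 at 253 CPM (237 to 269). Clusters 2, 1 and 0 came next at 121, 117 and 110 CPM, and their intervals overlapped one another. Secretory ameloblast-like cluster 3 had 63.8 CPM, cluster 6 had 24.8 CPM and cluster 4 had 14.4 CPM, the last 2 with overlapping intervals. In the mutant library cluster 5 stood first at 244 CPM (226 to 264), then cluster 8 at 172 CPM and cluster 2 at 143 CPM. Clusters 0, 1 and 3 followed at 82.0, 72.3 and 55.8 CPM. At the bottom, clusters 4, 6 and 7 had 23.7, 20.7 and 20.6 CPM, each overlapping the next. Apart from cluster 7, then, the clusters ran in much the same order in both libraries, with cluster 5 at the top.

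Cluster 6 was a mixture for Cldn1. In the depositors' clustering of all cells, 60.1% of its control and 63.2% of its mutant cells fell in cluster 25, and nearly all the rest in cluster 14 together with the secretory ameloblast-like cells. Cluster 25, with 86 control and 103 mutant cells, had 3.20 CPM of Cldn1 in control and 0.66 CPM in mutant. In cluster 14 Cldn1 was at 62.5 and 55.0 CPM. Cldn1 was thus close to 0 in the cells of cluster 25 and present in cluster 14 with the secretory ameloblast-like cells, in both libraries. Dspp led cluster 6 as a whole, and its level in each part was not compared. In cluster 8 of all cells, endothelium-like and expected to lack Cldn1, it was at 3.60 CPM in control and 1.57 CPM in mutant cells. The cells of cluster 25 thus lay at that background.

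Cldn4 (chromosome 5, 134945119 to 134946934, minus strand) and Cldn3 (chromosome 5, 134986214 to 134987472, plus strand) are neighbours, 39280 bases apart, and encode claudins of many simple epithelia. Cldn4 gave 67 UMIs in all control and 30 in all mutant lineage cells. Of these, 38 and 22 lay in cluster 5, where its level was 9.95 CPM (7.04 to 13.7) in control and 8.25 CPM (5.17 to 12.5) in mutant. There a Cldn4 UMI was found in 12.8% of control cells and 9.77% of mutant cells, against 0 of 259 and 0 of 592 endothelium-like cells. With cells thinned to 1000 UMIs it was left in 3 of 211 and 1 of 174 cells. In clusters 2, 3 and 6 it gave 0 UMIs in both libraries. Cldn3 gave 10 UMIs in control and 3 in mutant lineage cells, all in clusters 1 and 4. For secretory ameloblast-like cluster 3, a count of 0 allows up to 0.39 CPM of either gene in control and 0.33 CPM in mutant. Both genes stayed under 10 CPM in every cluster and were not compared between libraries.

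Ocln (chromosome 13, 100496507 to 100552718, minus strand) encodes occludin. It was highest in cluster 2, at 50.9 CPM in control and 43.8 CPM in mutant, and next in cluster 5, at 34.3 and 33.4 CPM. Clusters 0 and 1 had 24.3 and 24.2 CPM in control and 22.5 and 32.9 CPM in mutant. It was scarce in both ameloblast-like clusters and in cluster 6. Maturation ameloblast-like cluster 7 had 14 Ocln UMIs in control, or 6.05 CPM, and 0 in mutant. With 3 counts put for the 0 it was 2.34-fold lower, a value that leaves out the counting error of the control. Secretory ameloblast-like cluster 3 had 8 UMIs in control and 1 in mutant, a ratio of mutant to control of 0.105 (0.00236 to 0.782). The Dspp-led cluster 6 had 7 UMIs and 0, 2.78-fold lower with 3 counts put for the 0 there too. All 3 of these counts were under the minimum of 20 UMIs and 10 CPM for a comparison. Ocln was at 2.31 CPM in control and 2.05 CPM in mutant endothelium-like cells, so its level in clusters 3 and 6 was no higher than there.

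Tjp1 (chromosome 7, 65296165 to 65527781, minus strand), the ZO-1 gene, had another order. In control it was highest in maturation ameloblast-like cluster 7, at 87.2 CPM (75.6 to 100.1), then in clusters 3, 6 and 5 at 62.5, 53.1 and 49.7 CPM, with overlapping intervals. Clusters 4 and 1 had 35.4 and 34.1 CPM, cluster 0 had 24.8 CPM and cluster 2 had 18.6 CPM. In the mutant library clusters 5, 6 and 3 led at 69.7, 58.9 and 50.5 CPM, and cluster 7 had 43.0 CPM (31.9 to 56.7). The ameloblast-like clusters, where Ocln was scarce, were thus among the higher ones for Tjp1, and cluster 2, highest for Ocln, was low for Tjp1.

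**Figure D1:**
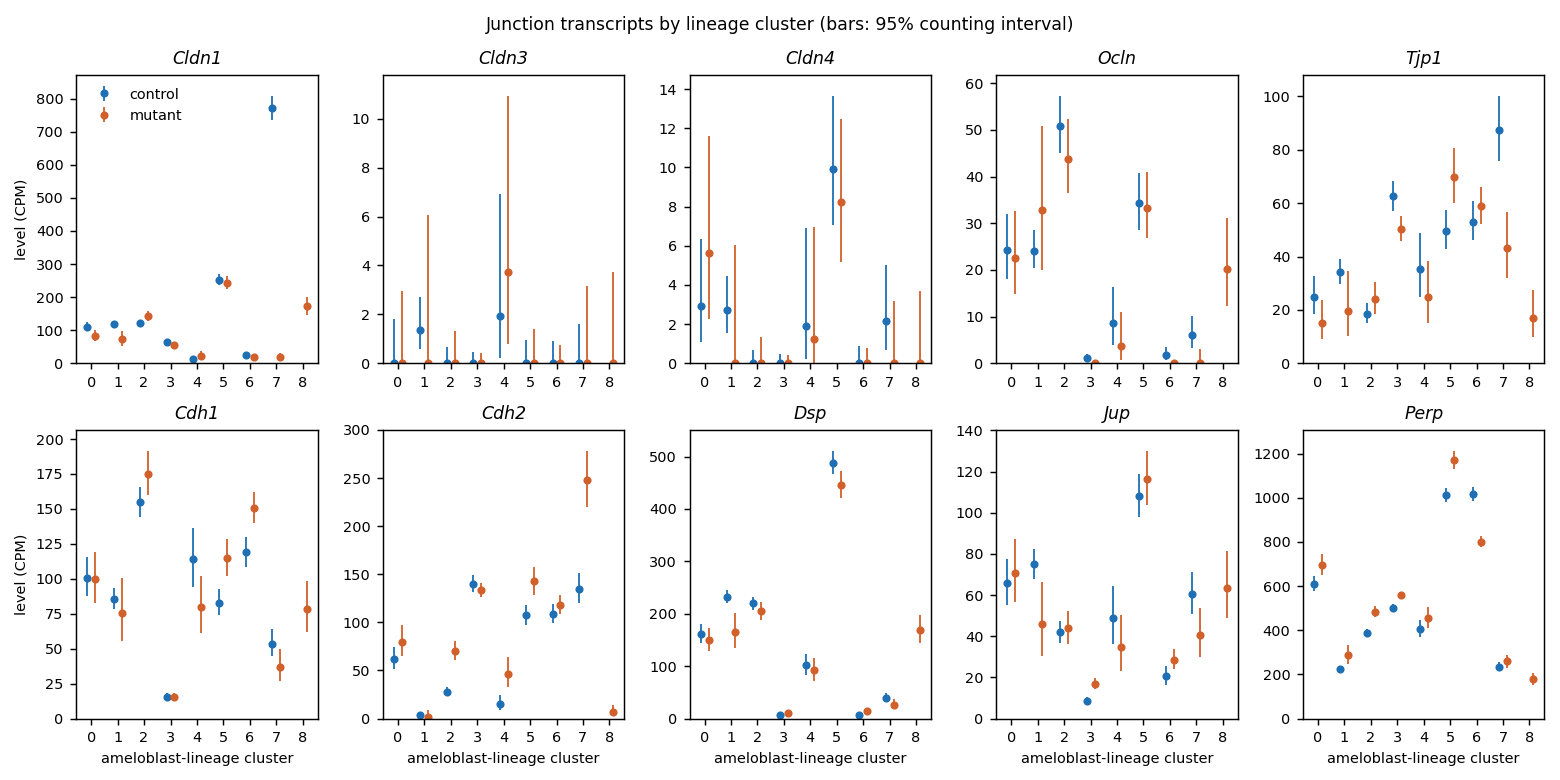
Level in CPM (y axis, 1 panel per gene, each with its own scale) of the 10 junction genes in ameloblast-lineage clusters 0 to 8 (x axis) in the control and the mutant library; points are levels of the summed cells and bars 95% counting intervals. Cldn1 in cluster 7 stands at 771 CPM in control and 20.6 CPM in mutant, while Dsp peaks in cluster 5 in both.

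Cdh1 (chromosome 8, 106603351 to 106670246, plus strand), the E-cadherin gene, was highest in cluster 2, at 155 CPM in control and 175 CPM in mutant. Cluster 6 followed at 119 and 150 CPM. Clusters 4, 0, 1 and 5 lay between 82.7 and 114 CPM in control and between 75.6 and 115 CPM in mutant. Maturation ameloblast-like cluster 7 had 53.5 and 37.0 CPM. Secretory ameloblast-like cluster 3 was lowest in both libraries, at 15.5 CPM (12.8 to 18.5) in control and 15.3 CPM in mutant.

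Cdh2 (chromosome 18, 16588877 to 16809246, minus strand), the N-cadherin gene, was highest in clusters 3 and 7 in control, at 140 CPM (132 to 149) and 135 CPM (121 to 151), which overlapped. Clusters 6 and 5 had 109 and 107 CPM, cluster 0 had 62.2 CPM, cluster 2 had 27.6 CPM and cluster 4 had 15.3 CPM. Outer enamel epithelium or stellate reticulum-like cluster 1 was lowest at 3.77 CPM (2.36 to 5.71), near the 3.60 CPM of control endothelium-like cells. In the mutant library cluster 7 led at 248 CPM (220 to 278), above cluster 5 at 143 CPM and cluster 3 at 133 CPM, and cluster 1 was again lowest with 1 UMI.

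The balance of the 2 cadherins across the lineage is given by the share of Cdh1 among the UMIs of both genes. It moves when either gene moves, and control cluster 6 had much of both, at 119 and 109 CPM. This share does not depend on how the libraries are scaled, but it weighs UMIs and not proteins. In control it was lowest, 9.95% (8.31 to 11.8), in secretory ameloblast-like cluster 3 and was 28.4% in cluster 7, 43.5% in cluster 5 and 52.2% in cluster 6. It was 61.8% in cluster 0, 84.9% in cluster 2, 88.1% in cluster 4 and 95.8% (93.7 to 97.3) in cluster 1. The mutant library gave 10.3%, 13.0%, 44.5%, 56.0%, 55.6%, 71.3%, 63.4% and 97.9% in the same order of clusters. The intervals of the libraries did not overlap in 3 of 8 clusters, and in all 3 the mutant share was the lower one: clusters 2, 4 and 7. With every cell thinned to 1000 UMIs, 0 of 8 were apart. How often the shares of other gene pairs lie apart between the libraries was not counted. Over the whole lineage the share was 51.5% (50.1 to 52.8) in control and 41.8% (40.4 to 43.2) in mutant. This share also carries the mix of clusters, with 495 control and 75 mutant cells in cluster 1 and 223 and 286 in cluster 3.

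Both transcripts were often found in the same cell. In cluster 6, 118 of 143 control cells and 131 of 163 mutant cells had UMIs of both Cdh1 and Cdh2. Split by the clustering of all cells, the cells of cluster 6 that lay in cluster 25 had 162 CPM of Cdh1 and 93.1 CPM of Cdh2 in control, and 214 and 86.2 CPM in mutant. Those that lay in cluster 14, 56 control and 60 mutant cells, had 49.9 CPM of Cdh1 and 134 CPM of Cdh2 in control, and 43.6 and 172 CPM in mutant. Cdh1 was thus the higher of the pair among the cells in cluster 25 and Cdh2 among those in cluster 14, in both libraries. In secretory ameloblast-like cluster 3, 1 control and 2 mutant cells had Cdh1 without Cdh2, and 136 and 173 had Cdh2 without Cdh1.

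**Figure D2:**
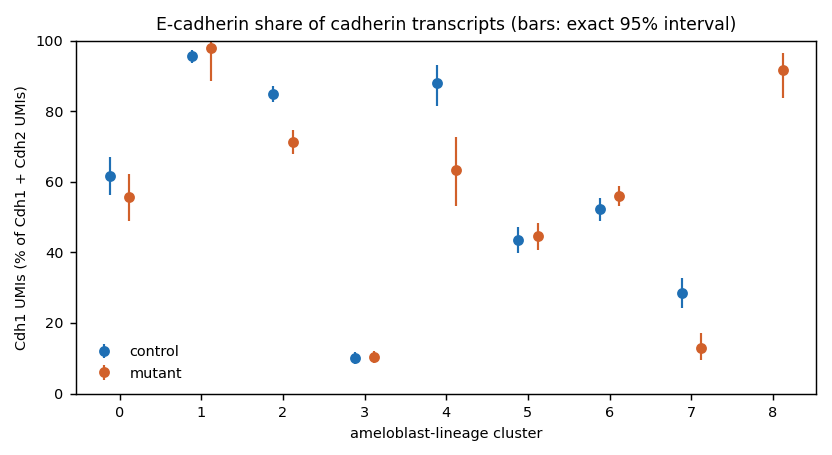
Share of Cdh1 in percent of the UMIs of Cdh1 and Cdh2 together (y axis) in ameloblast-lineage clusters 0 to 8 (x axis), with exact 95% binomial intervals as bars. The share runs from 9.95% in control cluster 3 to 95.8% in control cluster 1, and the mutant value lies below the control value, with bars apart, in clusters 2, 4 and 7; cluster 8 had mutant cells only.

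Dsp (chromosome 13, 38151294 to 38198577, plus strand) encodes desmoplakin. It was highest in stratum intermedium or papillary layer-like cluster 5, at 488 CPM (466 to 510) in control and 446 CPM (421 to 472) in mutant. Clusters 1 and 2 followed at 232 and 220 CPM in control and 166 and 205 CPM in mutant. Cluster 0 had 161 and 150 CPM, and cluster 4 had 102 and 92.2 CPM. Both ameloblast-like clusters and cluster 6 were lowest. Cluster 7 had 39.7 CPM in control and 25.8 CPM in mutant, the Dspp-led cluster 6 had 7.37 and 13.6 CPM, and secretory cluster 3 had 7.16 and 11.1 CPM. In control endothelium-like cells Dsp was at 2.57 CPM. A Dsp UMI was found in 99.5% of control cells in cluster 5 and 12.1% in cluster 3, and in 2.70% of endothelium-like cells, at medians of 17670, 35310 and 12520 UMIs per cell. Thinned to 1000 UMIs per cell, these were 95 of 211, 1 of 223 and 1 of 259 cells.

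Jup (chromosome 11, 100368958 to 100397763, minus strand) encodes plakoglobin, which serves both desmosomes and adherens junctions. Its order in the lineage was close to that of Dsp. Cluster 5 led with 108 CPM in control and 116 CPM in mutant, and cluster 1 had 74.9 and 46.0 CPM. Clusters 0, 7, 4 and 2 lay between 41.8 and 65.6 CPM in control and between 34.9 and 70.7 CPM in mutant. Cluster 6 had 20.6 and 28.5 CPM, and secretory ameloblast-like cluster 3 was lowest at 8.33 CPM (6.42 to 10.6) and 16.7 CPM (14.2 to 19.6).

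Perp (chromosome 10, 18845020 to 18857073, plus strand) did not share the low level of Dsp and Jup in cluster 6. In control, clusters 6 and 5 were highest, at 1015 CPM (984 to 1046) and 1011 CPM (980 to 1044), and overlapped. Cluster 0 had 611 CPM, secretory ameloblast-like cluster 3 had 502 CPM, and clusters 4 and 2 had 407 and 388 CPM. Clusters 7 and 1 were lowest at 234 and 224 CPM. In the mutant library cluster 5 was highest at 1169 CPM (1129 to 1211), above cluster 6 at 800.2 CPM, and cluster 8 was lowest at 177 CPM. A Perp UMI was found in 99.1% of control and 99.0% of mutant cells in cluster 3, against 11.6% and 5.91% of endothelium-like cells, so secretory ameloblast-like cells with few Dsp UMIs nearly all had Perp. Thinned to 1000 UMIs, the control shares were 33.6% and 2.32%.

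Over all lineage cells summed, 0 of the 8 members that could be compared were at least 2-fold lower or higher in the mutant. Of 7661 genes compared in the same way, 1.31% were lower and 0.992% higher. A gene was compared with a mean of at least 10 CPM and 20 UMIs, and called with a ratio past 2-fold and an interval without 1. Cldn1 had 153 CPM in control and 83.2 CPM in mutant, a ratio of 0.545 (0.517 to 0.574). Dsp had 156 and 102 CPM, a ratio of 0.657, and Ocln 19.8 and 11.6 CPM, a ratio of 0.588. Jup had 48.1 and 40.3 CPM. Tjp1 and Cdh1 were nearly level, with 45.7 and 46.1 CPM and with 84.1 and 83.0 CPM. On the other side, Cdh2 had 79.3 and 116 CPM, a ratio of 1.46 (1.38 to 1.54), and Perp 542 and 632 CPM. The share of each cluster among lineage cells differed between the libraries, with 495 control and 75 mutant cells in cluster 1, so these sums also carry the mix of cells.

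Within clusters, 58 of the 80 pairs of a member and a lineage cluster could be compared, of which 2 were lower and 3 higher in the mutant. Over all genes and the same 8 clusters, 2.54% of 58685 pairs were lower and 3.82% higher, and 2 and 3 of 58 pairs lie near those shares. The members' median log2 ratio was -0.02. The 2 lower pairs were Cldn1 and Tjp1 in cluster 7. The 3 higher pairs were Cdh2 in clusters 2 and 4 and Jup in cluster 3. Other scalings moved the median log2 ratio of all genes by more than 0.1 in several clusters, most in cluster 5 (by -0.26 with TMM factors), then in cluster 6 (-0.23) and cluster 2 (-0.21). Relative to that shift, the members of cluster 5 whose intervals lay above 1 came to 1.17 for Tjp1 (1.40 before), 1.16 for Cdh1 (1.39 before) and 1.11 for Cdh2 (1.33 before), while Perp turned from 1.16 to 0.964.

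Cldn1 in maturation ameloblast-like cluster 7 had 1786 UMIs in 187 control cells and 24 UMIs in 78 mutant cells. The levels of 771 and 20.6 CPM gave a ratio of 0.0268 (0.0171 to 0.0400). The transcript was held by a part of the cells. In control, 93 cells had a Cldn1 UMI, 44 had at least 10, and 15 cells held 50% of the UMIs. In mutant, 8 cells had one and a single cell held 15 of the 24 UMIs. Without the richest cell of each library the ratio was 0.0109. In this cluster 9.3% of 6432 genes were lower and 5.21% higher in the mutant. The summed level of the 7 maturation markers was 37960 CPM in control and 6048 CPM in mutant, with 0 of 7 at 0 in either. That of the 5 secretory markers was 218577 and 310902 CPM, also with 0 at 0.

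Cells were therefore also split by UMIs of Odam, an enamel protein gene of maturation, at 10 UMIs per cell, a limit chosen after the values had been seen. With at least 10 Odam UMIs there were 100 control cells and 4 mutant cells. In these, Cldn1 had 1245 CPM (1187 to 1305) in control, with a UMI in 79 cells, and 152 CPM (87.1 to 247) in mutant, from 16 UMIs of which 15 lay in 1 cell. With fewer than 10 Odam UMIs, Cldn1 had 36.4 CPM (25.0 to 51.1) in 87 control cells and 7.56 CPM (3.27 to 14.9) in 74 mutant cells. The control level was thus the higher one on both sides of the limit, while the 4 mutant cells with much Odam are too few to describe such cells. Mutant cells were the deeper ones on both sides, with median UMIs of 29922 against 9982 in control cells with much Odam and of 5834 against 2233 in those with little. Odam is only 1 of the 7 maturation markers, which together gave 7031 UMIs in the mutant cells of this cluster. Cells were not split by the other markers, so those with little Odam are not matched for maturation. How far the makeup of the cluster bears on the ratio was not tested.

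**Figure D3:**
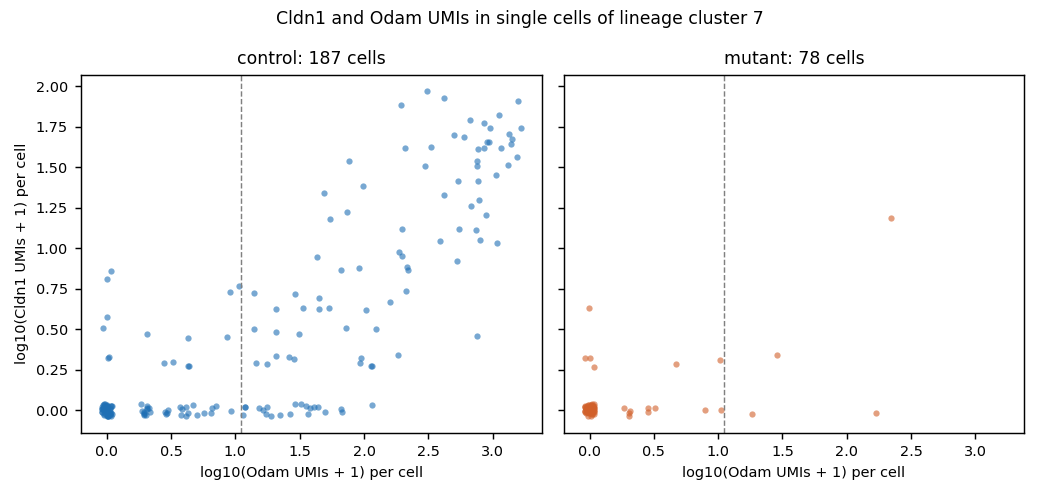
UMIs of Odam (x axis) and of Cldn1 (y axis) in each cell of lineage cluster 7, both as log10(UMIs + 1) with small random offsets so that points do not hide each other; the dashed line marks 10 Odam UMIs. On or right of the line are 100 of 187 control cells, 79 of them with a Cldn1 UMI, and 4 of 78 mutant cells.

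The other members of cluster 7 differed less. Tjp1 had 202 UMIs in control and 50 in mutant, or 87.2 and 43.0 CPM, a ratio of 0.493 (0.354 to 0.675). Split by Odam, it had 124 CPM in the control cells with much Odam and 30.8 CPM in those with little, against 38.1 CPM (4 UMIs) and 43.5 CPM in mutant. Among cells with little Odam Tjp1 was therefore not lower in the mutant. The ratio came to 0.614 under stricter limits on cells. Cdh1, Dsp and Jup had ratios of 0.691, 0.650 and 0.669, with intervals below 1 but short of 2-fold. Cdh2 had 135 and 248 CPM, a ratio of 1.83 (1.56 to 2.16), short of 2-fold as well. With little Odam it was at 115 CPM in control and 256 CPM in mutant, and with much Odam at 148 and 162 CPM. Perp was at 234 and 259 CPM.

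Cdh2 in cluster 2 had 151 UMIs in 340 control cells, or 27.6 CPM (23.3 to 32.3), and 194 in 190 mutant cells, or 70.3 CPM (60.8 to 80.9). The ratio was 2.55 (2.05 to 3.18), and a Cdh2 UMI was found in 68 of 340 control and 93 of 190 mutant cells. In this cluster 4.11% of 8347 genes were higher in the mutant. Cdh1 in the same cells had 155 and 175 CPM, a ratio of 1.13 (1.01 to 1.27), or 0.98 with TMM factors. Marker lists also differed in this cluster. The 8 markers of outer enamel epithelium or stellate reticulum summed to 5111 CPM in control and 2210 CPM in mutant. The 8 of dental pulp mesenchyme, a tissue with Cdh2, summed to 1943 and 784 CPM. Igfbp5 is in both lists and leads this cluster. The 6 of fibroblasts summed to 263 and 423 CPM with Dpt at 0 in both. The 5 of red blood cells summed to 1308 and 5495 CPM, and the 6 of macrophages or monocytes to 55.5 and 142 CPM. The 6 of odontoblasts or osteoblasts, cells with Cdh2, went from 5.11 to 167 CPM with Dmp1 at 0 in both, and Ibsp alone made up 157 CPM of the latter. The part of these lists in the Cdh2 ratio was not tested.

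Cdh2 in cluster 4 had 16 UMIs in control and 37 in mutant, or 15.3 CPM (8.76 to 24.9) and 46.1 CPM (32.5 to 63.6), a ratio of 3.01 (1.63 to 5.79). Cells there were shallow, with medians of 1996 and 1028 UMIs. Red blood cell markers summed to 299.8 CPM in control and 23113 CPM in mutant, and secretory markers to 88831 and 122251 CPM. Of all genes in this cluster 1.7% were higher in the mutant. The part of these markers was not tested, and with cells thinned to 1000 UMIs the ratio was 1.15.

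Jup in secretory ameloblast-like cluster 3 had 64 UMIs in 223 control cells and 153 in 286 mutant cells, a ratio of 2.01 (1.49 to 2.73) at the edge of the 2-fold limit. Here 2.04% of 5745 genes were higher in the mutant. It stayed past 2-fold in 4 of 9 alternatives and came to 1.83 with TMM factors. Dsp had 55 and 102 UMIs in these cells, a ratio of 1.56 (1.11 to 2.20). The other members were closer to level, with ratios of 0.875 for Cldn1, 0.808 for Tjp1, 0.987 for Cdh1, 0.951 for Cdh2 and 1.11 for Perp. Markers of the stratum intermedium or papillary layer, the neighbouring cells with most Dsp and Jup, summed to 112 CPM in control and 116 CPM in mutant, with 0 of 7 at 0. Other lists were higher in the mutant cells: fibroblast markers at 52.6 and 109 CPM with Dpt at 0 in both, macrophage or monocyte markers at 55.7 and 127 CPM, and pericyte or smooth muscle markers at 12.6 and 37.9 CPM with Des at 0 in both. The 3 neuron markers had 72.5 and 152 CPM, nearly all of it Tubb3, with Elavl4 at 0 in both. Dental epithelium markers summed to 1299 and 1511 CPM. The part of these markers in the Jup and Dsp ratios was not tested.

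**Figure D4:**
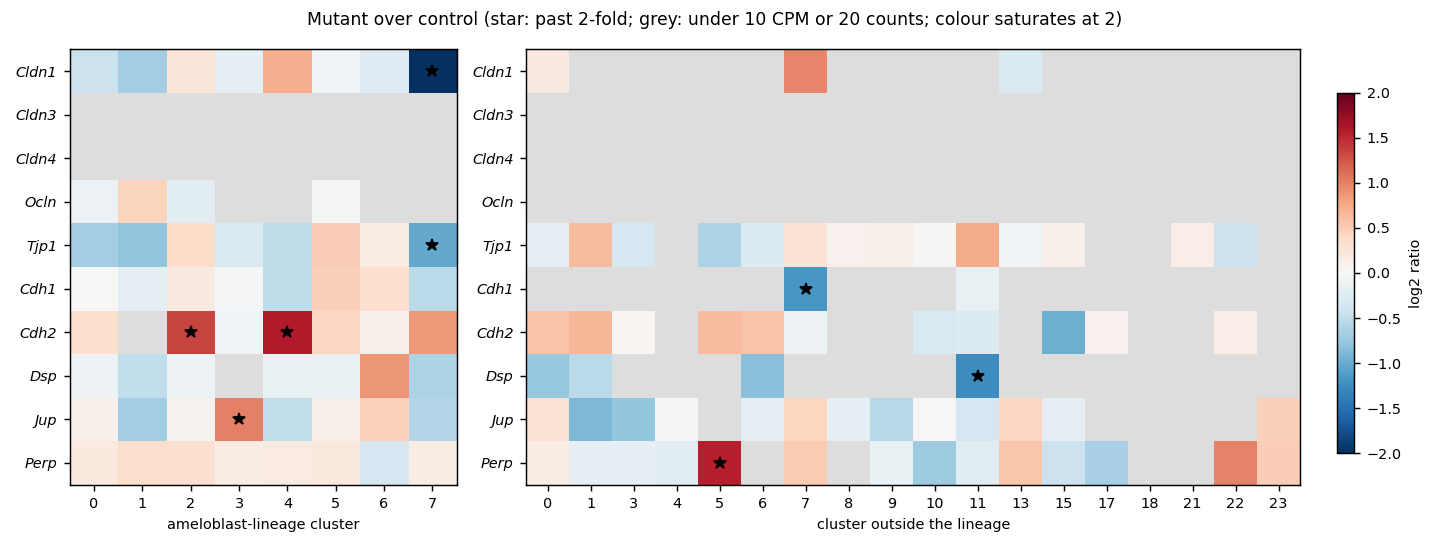
Log2 ratio of mutant to control (colour, limited to -2 and 2) for each junction gene (rows) in the clusters (columns) of the ameloblast lineage (left) and outside it (right); stars mark ratios past 2-fold with an interval without 1, and grey cells had too few counts to be compared. In the lineage, 5 pairs carry a star: Cldn1 and Tjp1 in cluster 7, Cdh2 in clusters 2 and 4, and Jup in cluster 3.

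Outside the lineage, cells were grouped by the clusters of all cells. Endothelium-like cluster 8 was the highest of them for Jup, at 294 CPM in control and 259 CPM in mutant, and for Tjp1, at 158 and 168 CPM. Both genes were above their highest level in any lineage cluster there, Jup against 108 and 116 CPM in cluster 5 and Tjp1 against 87.2 CPM in control cluster 7 and 69.7 CPM in mutant cluster 5. Endothelial cells are known to use both at their junctions. Endothelium-like clusters 9 and 15 followed for Jup, with 202 and 180 CPM in control and 138 and 159 CPM in mutant. Dsp, Cdh1, Cldn1 and Ocln stayed under 4 CPM in cluster 8 in both libraries.

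Cdh2 was present across mesenchyme. It had 116 CPM in control and 119 CPM in mutant in cluster 3, which was led by Fmod and Tnc, 68.4 and 104 CPM in cluster 5, 67.6 and 101 CPM in cluster 6, and 94.2 and 103 CPM in odontoblast or osteoblast-like cluster 22. Cdh1 made up 1.71% of the UMIs of both cadherins in control cluster 3 and 1.06% in mutant. Perp was at 463 and 415 CPM in cluster 3, where it is 1 of the 10 leading genes, and at 473 and 303 CPM in cluster 17. Cluster 17 was shallow, with medians of 899 and 938 UMIs per cell. It had Enam and Amelx beside Fmod among its leading genes, and 4 of 5 secretory ameloblast markers raised. The part of such RNA in its Perp level was not tested. In macrophage or monocyte-like cluster 4 Perp was at 15.3 and 13.0 CPM. Perp was thus as abundant in the Fmod-led mesenchyme as in some lineage clusters, with Dsp at most 17.6 CPM anywhere in clusters 3, 5, 6 and 7.

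Cldn1 stayed under 20 CPM outside the lineage in control, with 18.9 CPM from 5 UMIs in cluster 17, 16.3 CPM in cluster 13 and 16.2 CPM in cluster 7. In the mutant library cluster 7 was highest at 31.9 CPM, a ratio to control of 1.97 (1.22 to 3.37).

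Of the 180 pairs of a member and a cluster outside the lineage, 61 could be compared, of which 2 were lower and 1 higher in the mutant. Over all genes and these 18 clusters, 1.38% of 131029 pairs were lower and 2.4% higher. Dsp in cycling cluster 11 had 58.2 CPM in control and 24.3 CPM in mutant, a ratio of 0.417 (0.316 to 0.545), in a cluster where 1.02% of genes were lower. The 7 dental epithelium markers, carried by some cells of this cluster, summed to 1714 CPM in control and 855 CPM in mutant. The 6 fibroblast markers summed to 3566 and 6189 CPM. Red blood cell markers there summed to 270 and 12866 CPM, and pericyte or smooth muscle markers to 385 and 2130 CPM. Perp in cluster 5 had 7 UMIs in 92 control cells and 313 in 1352 mutant cells, or 9.98 and 29.4 CPM, a ratio of 2.94 (1.41 to 7.38), with 1.4% of genes higher there. Cdh1 in cluster 7 had 14.4 and 6.42 CPM, a ratio of 0.446 (0.251 to 0.835), with 1.81% of genes lower there. Dental epithelium markers there summed to 238 CPM in control and 74.2 CPM in mutant. That last ratio rested on 1 control cell, since without the richest cells it was 0.827 (0.390 to 2.02). The part of these markers was not tested.

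**Figure D5:**
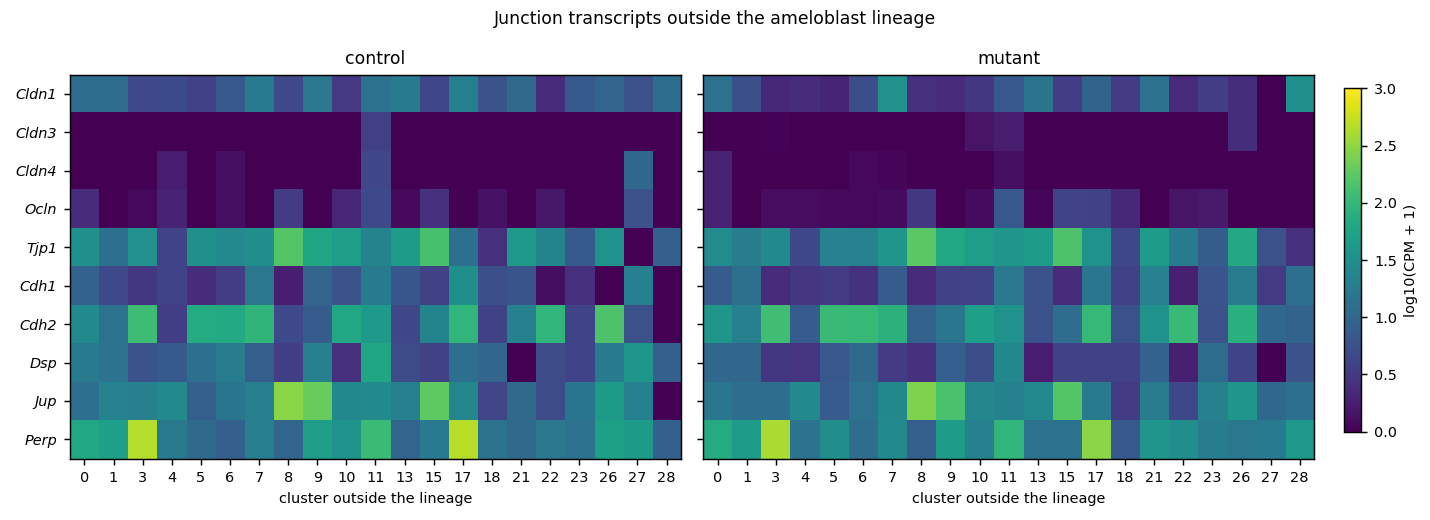
Levels of the 10 junction genes (rows) as log10(CPM + 1) in colour, in the 18 compared and 3 smaller clusters outside the ameloblast lineage (columns), control on the left and mutant on the right. Jup and Tjp1 are highest in endothelium-like cluster 8, and Perp in clusters 3 and 17.

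Other genes of the same structures were taken from 3 lists. Of 27 further tight junction genes, 9 could be compared over the whole lineage and 0 were past 2-fold. Of 12 further adherens junction genes 10 could be compared, also with 0. Of 13 further desmosome genes 9 could be compared, with 1 lower and 0 higher. That 1 was the desmocollin gene Dsc2, at 21.9 CPM in control and 10.2 CPM in mutant, a ratio of 0.468 (0.404 to 0.542). It was named because it was the only one, after its values had been seen. List medians were log2 ratios of -0.13, -0.23 and -0.14, with -0.14 for the members and -0.04 for all genes compared. Of 12 regulators of epithelial and mesenchymal state (the Snail, Zeb, Twist, grainyhead-like, Ovol and Esrp genes) 3 could be compared and 0 were past 2-fold over the whole lineage. Within clusters 3 comparisons were past it, in genes named after their values had been seen. In cluster 2, 2 of 5 regulators compared were higher, and in cluster 7, 1 of 2 was lower. Over all genes, 4.11% were higher in cluster 2 and 9.3% lower in cluster 7. In cluster 2, where Cdh2 was also higher, Zeb2 had 5.48 CPM in control and 16.3 CPM in mutant, a ratio of 2.98 (1.83 to 4.89). Twist1 had 5.84 and 14.5 CPM there, a ratio of 2.48 (1.52 to 4.08). Ovol2 in cluster 7 had 47.5 and 19.8 CPM, 2.40-fold lower. Zeb2 and Twist1 are transcription factors of mesenchymal state and Ovol2 one of epithelial state. Fibroblast and macrophage or monocyte markers were also higher in mutant cluster 2, as given above. The part of these markers in the Zeb2 and Twist1 ratios was not tested.

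In cluster 7 the lists held several lower genes, beside 9.3% of all genes. Cxadr, a tight junction receptor, was at 453 CPM in control and 155 CPM in mutant, 2.93-fold lower (2.50 to 3.45). Evpl, the envoplakin gene of the desmosomal plaque and cornified envelope, had 126 and 6 UMIs, or 54.4 and 5.16 CPM, 10.5-fold lower (4.71 to 29.3). Pkp4, a plakophilin relative, was at 92.8 and 42.1 CPM, 2.20-fold lower. The desmosomal cadherin gene Dsg3 had 59 UMIs and 0, a ratio of 0 with an interval up to 0.129. The polarity gene Pard3 had 43.2 and 21.5 CPM. Cdh11, a mesenchymal cadherin, had 18 and 48 UMIs, a ratio of 5.31 (3.03 to 9.70). In all, 2 of 8 tight junction, 0 of 8 adherens junction and 3 of 6 desmosome genes compared there were lower, and Cdh11 was the only higher one. Dsg3, Pard3 and Cdh11 were named after their values had been seen.

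In secretory ameloblast-like cluster 3, 2 of 4 other desmosome genes compared were higher in the mutant and 0 lower, against 2.04% and 0.853% of all genes. Dsg2, a desmosomal cadherin, was at 23.4 CPM in control and 47.6 CPM in mutant, a ratio of 2.03 (1.70 to 2.43). Pkp1, the plakophilin that binds desmoplakin, was at 6.77 and 15.6 CPM, a ratio of 2.31 (1.67 to 3.23). Both stood beside Jup at 2.01 and Dsp at 1.56 in the same cells. The list's median log2 ratio was 0.72, with 0.12 over all genes of the cluster. Dsg2 and Pkp1 were named after their values had been seen. The shift of scale in this cluster, a log2 of -0.14, takes Dsg2 as well as Jup under 2-fold. In other clusters genes of this list went both ways. Dsg2 had a ratio of 0.446 (0.290 to 0.668) in cluster 0, and Dsc2 had 0.233 in cluster 0 and 0.487 in cluster 1. Dsg1b had a ratio of 3.55 in cluster 1 and Dsg1a 2.72 in cluster 2. These too were named after their values had been seen. In cluster 2, Marveld2, the tricellulin gene of tricellular contacts, had 14 UMIs in control and 80 in mutant, a ratio of 11.3 (6.38 to 21.7), and was chosen in the same way.

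Cldn10 was the claudin of the lists with the most UMIs in the lineage. It had 1329 CPM in control and 1405 CPM in mutant in cluster 5, where Cldn1 was also high. In cluster 1 it had 715 and 1423 CPM, a ratio of 1.99 (1.85 to 2.14), while Cldn1 had a ratio of 0.616 (0.443 to 0.836) in the same cells. In cluster 4 it was at 465 and 244 CPM, and in secretory ameloblast-like cluster 3 at 17.6 and 8.30 CPM, 2.12-fold lower, where 0.853% of genes were lower. Pvrl3, the nectin-3 gene, had 273 and 403 CPM in cluster 2 and 420 and 236 CPM in cluster 0. Ctnnb1, which encodes the beta-catenin bound to cadherin tails, had ratios of 1.12 to 1.25 in the 6 clusters 0, 1, 2, 3, 5 and 6, with intervals above 1. The shifts of scale in clusters 5 and 6 would take its ratio there below 1. Those in clusters 0, 1 and 3, at log2 values of -0.096, -0.124 and -0.136 with TMM factors, would take the lower bound of its interval below 1. Ctnnb1 was at 320 CPM in mutant against 309 CPM in control over the whole lineage.

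Genes with a pattern like a member's were sought over 29 clusters of at least 100 cells, by Pearson's r of log2(CPM + 10) with both libraries summed. These are descriptions over clusters that share libraries and depth. Dsp was most like Dsc2 (0.97) and Dsc3 (0.96), both desmocollin genes. Ocln was most like Prom2 (0.95), Pvrl4 (0.94) and Dsc3 (0.94). Cdh1 was most like Krtcap3 (0.95), Trp63 (0.93) and Rab25 (0.93). For Cldn1 the nearest were Trim29, Dsg2 and Ggt1 (each 0.88), and for Perp Wnt4 (0.89), D630045J12Rik (0.87) and Cxadr (0.87). Tjp1 was nearest to Arhgap29 (0.92), Dab2ip and Pls3 (both 0.89), and Jup to Ccnyl1 (0.91), Palmd (0.90) and Adgrg1 (0.88). Cdh2 had no close match, with P4ha2, Dlx3 (both 0.77) and Pde4dip (0.75) nearest. Among the members, Dsp and Ocln had an r of 0.93, Dsp and Cdh1 0.82, and Tjp1 and Jup 0.70. Cdh1 and Cdh2 had an r of 0.27, and Jup and Cdh2 -0.13.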

How the data were processed

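Per the labels' protocols, cells of 1 control and 1 Memo1;K14CRE incisor at postnatal day 20 were sequenced with 10x Genomics 3' chemistry. Per the submitters' processing notes, Cell Ranger, Seurat 3 and mm10 were used, with the annotation not given in the sources used here. The values the authors deposited are whole-number UMI counts per gene and cell, with a cluster number for all cells and another within the ameloblast lineage. Cells hold at least 501 UMIs and 200 genes and at most 30.0% mitochondrial counts.

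Counts were summed per cluster and library and divided by the cluster's total (CPM). Levels carry exact Poisson intervals, ratios exact conditional intervals and shares exact Clopper-Pearson intervals. Clusters needed 50 cells in both libraries to be compared, genes a mean of 10 CPM and 20 counts, and calls 2-fold with an interval without 1. With 1 library per group no test or p-value was possible. Names of clusters come from marker lists. In the lineage, the names that the lists gave to clusters 0, 2, 4 and 8 were not used, in view of the leading genes described above. No list named cluster 6. All members were reported; list genes were named with at least 50 CPM and 50 counts by the nearer bound of their interval. Up to 3 genes with the most similar pattern were named for each member, and 1 that this rule allows is not reported here. Members, lists and markers were chosen with earlier results of these data known. Of the lists, 27 of 29 tight junction, 12 of 13 adherens junction (4 by older symbols), 13 of 13 desmosome and 12 of 12 regulator genes were found, and the others are not analysed here. On simulated Poisson counts, 95.2% of intervals held the true ratio for the whole lineage and 95.7% for cluster 7. Such counts do not clump by cell as real UMIs do, so this checks the calculation only. Alternatives used edgeR 4.0.16 (TMM) and DESeq2 1.42.0 (median of ratios) for scaling only, with Python 3.11.15 and R 4.3.3.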

Additional observations from a re-analysis of the deposited data

Results flagged for a closer look

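For 6 members the ratio of mutant to control lay below 1 with its whole counting interval in some lineage clusters and above 1 in others. With 1 library per group these differences between clusters were not tested. The pattern was sought among the members only, so how common it is over all genes is not known. The median log2 ratio of all genes itself differed between clusters. It was 0.15 in cluster 2, 0.12 in cluster 3, 0.23 in cluster 5 and 0.18 in cluster 6, and -0.02 in cluster 7. Cldn1 had ratios of 0.743 in cluster 0, 0.616 in cluster 1, 0.875 in secretory ameloblast-like cluster 3 and 0.0268 in maturation ameloblast-like cluster 7, but 1.18 in cluster 2. Tjp1 had 0.808 in cluster 3 and 0.493 in cluster 7, but 1.40 in cluster 5. Cdh1 had 0.700 in cluster 4 and 0.691 in cluster 7, but 1.13 in cluster 2, 1.39 in cluster 5 and 1.26 in cluster 6. Dsp had 0.715 in cluster 1, 0.914 in cluster 5 and 0.650 in cluster 7, but 1.85 in cluster 6. Jup had 0.614 in cluster 1 and 0.669 in cluster 7, but 2.01 in cluster 3 and 1.38 in cluster 6. Perp had 0.788 in cluster 6, but 1.14 in cluster 0, 1.27 in cluster 1, 1.25 in cluster 2, 1.11 in cluster 3 and 1.16 in cluster 5. With TMM or median-of-ratios factors the values in clusters 0, 1, 2, 3, 5 and 6 are lower by the shifts of all genes in those clusters. With TMM factors that of Cldn1 in cluster 2 is then 1.03, that of Cdh1 in cluster 2 is 0.982 and that of Perp in cluster 5 is 0.964.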

How the results depend on the processing

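No paired analysis was possible because each group is 1 library. Of 69 ratios of members, 500 values under the alternatives stayed near the main one, 115 moved and 2 reversed. The reversed values were those of Cdh1 in cluster 7 outside the lineage, from 0.446 to 1.54 under stricter cell limits and 2.08 without the 5% of cells richest in UMIs. Cldn1 in lineage cluster 7 stayed past 2-fold in 9 of 9 alternatives, Cdh2 in clusters 2 and 4 in 8 of 9 each, Tjp1 in cluster 7 in 6 of 9 and Jup in cluster 3 in 4 of 9. Their values ran from 0 to 0.0507, 2.21 to 5.60, 1.15 to 3.51, 0 to 0.614 and 1.82 to 6.24. Outside the lineage, Dsp in cluster 11 and Perp in cluster 5 did so in 8 of 9 each and Cdh1 in cluster 7 in 4 of 9. Thinning cells to 1000 UMIs left 1 lower (2 in the main analysis) and 1 higher (3) pair of a member and a lineage cluster, 0 lower (2) and 0 higher (1) pairs outside, 0 clusters with separate cadherin shares (3) and 1 higher list gene (0). Fewer counts remain after thinning. Totals without the most abundant transcripts left 1 lower lineage pair, 0 lower list genes (1) and 1 higher list gene. Without the filter on low values 5 lineage pairs were lower, and at 1.5-fold 5 were lower and 5 higher. Outside the lineage, stricter cell limits gave 4 lower and 2 higher pairs, as did removal of the 5% of cells richest in UMIs. Means of per-cell CPM gave 3 higher pairs, and leaving out each gene's richest cell 1 lower and 2 higher. Stricter limits gave 2 lower list genes. The cause of the other changes was not tested. Leaving out cells whose barcode occurs in both libraries, an alternative added after the data had been seen, moved none of these counts by more than 1.5 times. Cldn3 and Cldn4 had too few counts to be compared in any cluster.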
